A study of Mus musculus with 9 samples.

Results

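Late-loss CpGs are the 445 sites, of 356320 tested, whose methylation level was almost equal in naive B cells and plasmablasts and much lower in plasma cells. They were chosen by their levels. In each group the methylated reads of the 3 libraries were summed and divided by all reads. A CpG was taken where naive B cells and plasmablasts lay within 5 percentage points of each other, plasma cells lay at least 30 points below plasmablasts, and the plasma cell level was above 20%. A CpG was tested where every library had at least 10 reads, which 39.1% of the 911004 deposited CpGs did. The levels of the 445 CpGs in these libraries are therefore a description and were not tested.

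The assay was reduced representation bisulfite sequencing, in which MspI cuts the genome at CCGG and bisulfite turns cytosines without a methyl group into bases that are read as thymine. The 9 libraries, 3 in each group, were made from sorted spleen cells of C57Bl/6J females at 10 weeks of age. Naive B cells were sorted as B220+ CD43- from untreated mice. Plasmablasts (B220mid, CD138+) and, with the B220low gate, CD138+ plasma cells were sorted on day 3 from mice given the bacterial lipopolysaccharide LPS. The sources used here do not say which mice gave which library.

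Methyl groups on CpG cytosines are copied to the new strand at each replication by Dnmt1. They are lost passively when a dividing cell does not copy them, and actively after oxidation by the Tet enzymes. Naive B cells that meet LPS, a ligand of the receptor TLR4, divide several times while they turn into plasmablasts, and the plasma cell is the antibody-secreting end stage that leaves the cycle. In bulk DNA a lower level per cell and a larger share of cells without the methyl group cannot be told apart.

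The CpGs of 2 promoters show what the measured position is. At these, the CpGs of the deposited table that lie in the window match the CG positions of a RefSeq promoter sequence (build GRCm38.p6, 250 bases before to 50 after the start site), and the late-loss CpG is in capitals. Of the 5 genes with a late-loss CpG in such a window, these 2 could be matched, with 3 of 4 CpGs of the table on a CG in Slc7a7 and 5 of 5 in 1300017J02Rik. In both the capitals lie inside CCGG, the MspI site, which reads the same on both strands and which 52.8% of the 32851 RefSeq promoters hold.
Slc7a7 (chr14:54417653-54417952, minus strand): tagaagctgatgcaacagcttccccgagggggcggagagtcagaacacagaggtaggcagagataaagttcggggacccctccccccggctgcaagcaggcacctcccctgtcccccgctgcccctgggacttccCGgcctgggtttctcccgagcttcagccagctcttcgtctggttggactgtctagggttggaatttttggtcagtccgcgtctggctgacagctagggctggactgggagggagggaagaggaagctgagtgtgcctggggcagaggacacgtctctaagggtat
1300017J02Rik (chr9:103288248-103288547, minus strand): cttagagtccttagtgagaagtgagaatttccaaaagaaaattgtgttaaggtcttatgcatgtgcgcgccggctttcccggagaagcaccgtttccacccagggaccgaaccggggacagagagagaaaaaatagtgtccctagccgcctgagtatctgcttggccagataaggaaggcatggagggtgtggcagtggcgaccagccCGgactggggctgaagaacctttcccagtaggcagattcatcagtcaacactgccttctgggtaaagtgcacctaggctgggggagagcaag

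Slc7a7 encodes the light chain of a transporter of cationic amino acids. Its late-loss CpG (chr14:55036653 in mm9, the build of the deposited table, 116 bp before the start site) had 54.1%, 68.4% and 81.8% in the naive B replicates 1, 2 and 3, 71.4%, 72.7% and 48.1% in the plasmablast ones, and 33.3%, 15.8% and 16.0% in the plasma cell ones. All 3 plasma cell libraries lay below all plasmablast libraries, and naive B cells and plasmablasts overlapped. In 1300017J02Rik the CpG at chr9:103190668 (mm9) had 85.4%, 96.0% and 95.5% in naive B cells, 96.3%, 92.9% and 81.0% in plasmablasts, and 74.2%, 50.0% and 46.7% in plasma cells.

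Across the 445 CpGs the library means were 73.8%, 82.4% and 82.8% for the naive B replicates 1, 2 and 3, 76.5%, 79.6% and 78.8% for the plasmablast ones, and 50.1%, 41.1% and 39.5% for the plasma cell ones. The group means were 79.7% ± 5.05, 78.3% ± 1.61 and 43.5% ± 5.74 (SD, n = 3 libraries each). Over all tested CpGs they were 62.4% ± 1.23 in naive B, 54.8% ± 1.16 in plasmablast and 49.8% ± 1.77 in plasma cell libraries. The step between naive B cells and plasmablasts is called the first step here, and that between plasmablasts and plasma cells the last. By pooled reads, plasma cells minus plasmablasts was -34.9 points on average, with a median difference of -33.6 and a lowest of -57.5. Most CpGs lay close to the threshold: 279 of 445 had a difference of 30 to 35 points, and 58 of 40 points or more. The plasma cell levels were intermediate, but the rule limited them on both sides. It set a minimum for plasma cells and a gap below plasmablasts, so intermediate levels are not a separate result. The pooled plasma cell level was 50% or more at 158 CpGs and under 30% at 72, with a median of 43.4%.

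**Figure D1:**
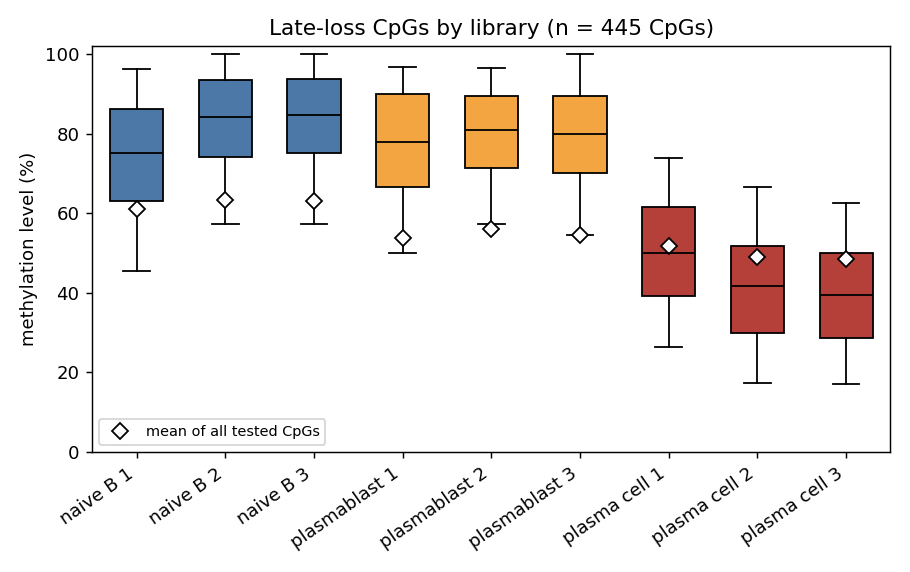
Methylation level (%) of the 445 late-loss CpGs in each of the 9 libraries. Boxes span the quartiles with the median as a line, whiskers reach from the 5th to the 95th percentile, and diamonds mark the mean of all 356320 tested CpGs. Naive B cells 1 (mean 73.8%) lay below the other naive libraries and plasma cells 1 (50.1%) above the other plasma cell libraries.

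At 419 of the 445 CpGs every plasma cell library lay below every plasmablast library, against 17.4% of all tested CpGs, a contrast that the rule itself used. At 5 of the 445 every plasmablast library lay below every naive B library, against 38.6% of all tested CpGs. This contrast was used by the rule too, which kept only near-equal pooled levels. Naive B cells 1 had the lowest naive level at 280 of the 445 CpGs (62.9%, against 40% of all tested CpGs), and plasma cells 1 had the highest plasma cell level at 265 (59.6%, against 39.7%). The libraries also differed at 78187 CpGs with almost no methylation. The mean level there was 1.07% to 1.16% in plasma cells and 0.749% in naive B cells 1. It was 2.08% to 6.11% in plasmablasts and 2.63% and 3.13% in naive B cells 3 and 2. No plasma cell library shares a background with a plasmablast library, so background and group cannot be told apart in that contrast. With each library's background subtracted, 401 CpGs met the rule, 396 of them among the 445. Without plasma cells 1 the rule took 950 CpGs, with 392 of the 445 among them, and without plasmablasts 1 it took 763, with 287 of the 445.

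The CpG furthest below plasmablasts in plasma cells lay in an intron of Slc43a2 (chr11:75376741), which encodes a transporter of large neutral amino acids. It had 95%, 89.2% and 96.8% in naive B cells, 100%, 93.8% and 87.5% in plasmablasts, and 25%, 30.8% and 43.5% in plasma cells. The groups at the last step did not overlap, with a gap of 44.0 points between the lowest plasmablast and the highest plasma cell library. The pooled level was 34.6% of 52 reads in plasma cells (exact 95% Clopper-Pearson interval 22% to 49.1%) and 92.2% of 51 reads in plasmablasts (81.1% to 97.8%). Such intervals cover counting error only. The median depth at late-loss CpGs was 20 to 31 reads per library, and levels of single libraries at other CpGs are as coarse. Elmsan1 (chr12:85514643, exon), a subunit of a histone deacetylase complex, had 82.7%, 77.4% and 76.7% in naive B cells, 77.4%, 74.2% and 75% in plasmablasts, and 31.2%, 22.6% and 16.7% in plasma cells. All 6 naive B and plasmablast libraries lay above 70%, and no plasma cell library reached 35%.

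Rbm38, an RNA-binding protein, had an intergenic CpG 31504 bp after its start site (chr2:172878908) with 81.8%, 96.6% and 100% in naive B cells, 76.0%, 93.8% and 81.8% in plasmablasts, and 33.3%, 33.3% and 34.3% in plasma cells. Its plasma cell libraries lay within 0.952 points of each other, but the CpG 19 bp away, covered by the same reads, had pooled levels of 74.7% in naive B, 45.6% in plasmablast and 29.5% in plasma cell libraries. That neighbour was lower in plasmablasts already. Vcam1 encodes an adhesion molecule that lymphocytes bind through an integrin. A CpG 27941 bp before its start (chr3:115860548) had 60.3%, 75.9% and 78.3% in naive B cells, 69.0%, 66.7% and 72.4% in plasmablasts, and 24.5%, 10.0% and 26.3% in plasma cells.

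The libraries spread more at the next CpGs. In an exon of Nnat, an imprinted gene, the CpG at chr2:157387513 had 69.2%, 100% and 92.3% in naive B cells, 84.6%, 84.2% and 83.3% in plasmablasts, and 52.6%, 28.6% and 23.5% in plasma cells. Near Kndc1 (chr7:147064727) the naive B libraries alone ran over 41.7%, 100% and 81.8%, the plasmablasts over 60%, 83.3% and 81.8%, and the plasma cells over 45.5%, 29.4% and 12.5%. Its near-equal pooled levels of 75% in plasmablasts and 77.1% in naive B cells thus averaged naive B libraries that lay up to 58.3 points apart. Col13a1, a transmembrane collagen gene, had a CpG 44995 bp before its start (chr10:61486852) with 75%, 92.1% and 76.9% in naive B cells, 82.4%, 78.3% and 76.0% in plasmablasts, and 42.3%, 45.0% and 13.8% in plasma cells.

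**Figure D2:**
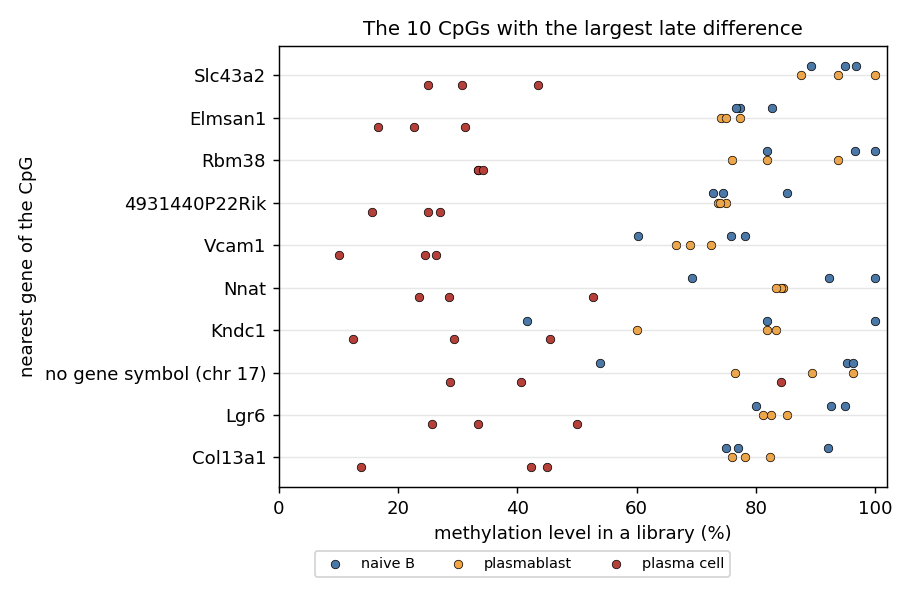
Methylation level (%) in each of the 9 libraries at the 10 late-loss CpGs with the largest difference of pooled levels between plasma cells and plasmablasts, labelled by the nearest gene. Each point is a library. At 9 of the 10 the plasma cell points lie left of every plasmablast point; the exception is the CpG on chromosome 17 without a gene symbol, where plasma cells 1 stood at 84.2%.

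At that exception (chr17:39982181) the libraries had 53.8%, 95.3% and 96.3% in naive B cells, 89.5%, 96.4% and 76.5% in plasmablasts, and 84.2%, 28.7% and 40.6% in plasma cells. It carried 3126 reads over the 9 libraries, against a median of 235 for late-loss CpGs. The other tested CpGs within 1 kb carried 1305 to 37877 reads, and their pooled plasma cell levels were 2.06% to 36.3%. Whether this sequence occurs in several copies was not tested.

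Late-loss CpGs were scattered. They formed 437 runs in which neighbours lay at most 100 bp apart, and 432 of these were a single CpG. Of 359 genes with a late-loss CpG, 341 had 1 and 18 had 2, and 68 CpGs had no gene symbol in the deposited table. No other tested CpG lay within 100 bp at 55.3% of late-loss CpGs. That share was 38.3% for the 3432 early-loss CpGs, which mirror the rule (naive B minus plasmablast of 30 points or more, then within 5 points), and 25.3% for all tested CpGs.

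The longest run held 5 late-loss CpGs between chr4:148326478 and chr4:148326527 in an exon of Casz1, a zinc finger transcription factor named here through its gene ID. A further late-loss CpG of that exon lay at chr4:148326974, so Casz1 exons held 6 late-loss CpGs of 34 tested. The CpG at chr4:148326512 had 84.6%, 84.2% and 80% in naive B cells, 83.3%, 83.9% and 78.6% in plasmablasts, and 55.0%, 51.4% and 34.8% in plasma cells. The pooled plasma cell level in the run was 37.2% to 55.1%. These CpGs share reads, so they are not 5 independent measurements. The 3 other tested CpGs inside the run, which missed the rule, had pooled levels of 77.9% to 85.3% in naive B, 73.0% to 76.4% in plasmablast and 44.9% to 54.5% in plasma cell libraries.

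The 4 runs of 2 lay near 4931440P22Rik, Ptpn22, Zdhhc18 and Phf8. Near the RIKEN gene 4931440P22Rik the CpG at chr3:65298850 had 72.9%, 74.4% and 85.3% in naive B cells, 73.7%, 75% and 73.9% in plasmablasts, and 25%, 15.6% and 27.1% in plasma cells. Its partner 41 bp away had pooled levels of 83.5%, 84.2% and 52.9% in that order of stages. Ptpn22 encodes a phosphatase that dampens antigen receptor signalling. In its exon the CpG at chr3:103689992 had 55.3%, 82.8% and 77.8% in naive B cells, 59.5%, 64.1% and 70.0% in plasmablasts, and 26.5%, 16.7% and 35% in plasma cells. Naive B cells 1 lay below every plasmablast library there, and the other naive libraries lay above them.

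Zdhhc18, a palmitoyltransferase gene, held its pair in an exon (chr4:133163491 and 12 bp away). The first had 96.0%, 100% and 100% in naive B cells, 100%, 93.3% and 96.7% in plasmablasts, and 78.3%, 38.5% and 53.8% in plasma cells. Plasma cells 1 was the highest plasma cell library by 24.4 points. The pair at Phf8, a histone demethylase gene on the X chromosome, lay 4 and 11 bp after the start site. At chrX:147955227 naive B cells had 69.6%, 40% and 66.7%, plasmablasts 68.8%, 55.0% and 66.7%, and plasma cells 37.5%, 18.2% and 30.8%.

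By annotation the late-loss CpGs were spread over promoters, exons, introns and intergenic sequence. Promoters, from 2500 bp before to 500 bp after a start site, held 8.54% of late-loss CpGs, 5.04% of early-loss CpGs and 15.5% of all tested CpGs. Within 1 kb of a start site lay 11.9% of late-loss, 4.31% of early-loss and 26.4% of all tested CpGs. Of the CpGs at 80% or more in both naive B cells and plasmablasts, 4.43% lay within 1 kb. In naive B cells late-loss CpGs averaged 79.2%, against 96.9% in that highly methylated set, 89.3% at early-loss and 62.3% at all tested CpGs, so no set matched them in level. The share in exons was 12.4% for late-loss CpGs, 6.15% for early-loss CpGs and 15.6% for that highly methylated set. Introns held 37.8% of late-loss CpGs and intergenic sequence 41.3%. The median distance to a start site was 13875 bp for late-loss and 24673 bp for early-loss CpGs. These shares were not tested. The median difference of plasma cells minus plasmablasts was -33.4 in promoters, -34.5 in exons, -33.1 in introns and -33.8 in intergenic sequence.

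**Figure D3:**
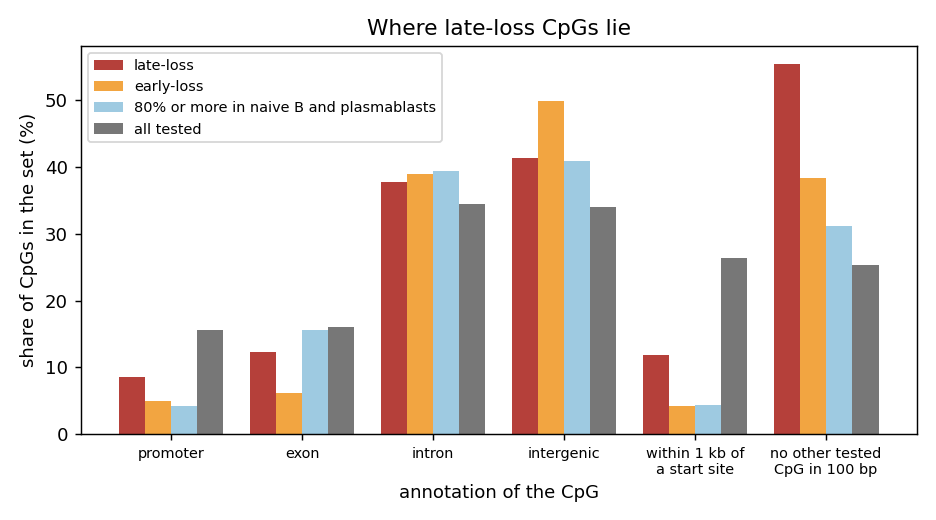
Share of CpGs (%) by annotation for the 445 late-loss CpGs, the 3432 early-loss CpGs, the CpGs at 80% or more in both naive B cells and plasmablasts, and all 356320 tested CpGs. Late-loss CpGs were the set with the highest share of CpGs that have no other tested CpG within 100 bp (55.3%), and their share within 1 kb of a start site (11.9%) lay between early-loss (4.31%) and all tested CpGs (26.4%).

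The B cell and plasma cell genes themselves held few late-loss CpGs. Pim1, a kinase that promotes survival and growth, had 2 of its 97 tested CpGs among them, both upstream of its start site. The CpG at chr17:29588128, 39861 bp upstream, had 79.2%, 100% and 100% in naive B cells, 93.8%, 86.4% and 89.5% in plasmablasts, and 56.2%, 38.1% and 58.3% in plasma cells. The one at chr17:29571430, 56559 bp upstream, had 85.7%, 75.6% and 71.4% in naive B cells, 65.0%, 71.4% and 77.8% in plasmablasts, and 31.6%, 41.9% and 25% in plasma cells. On the same reads, the CpG 11 bp from the second had pooled levels of 59.5% in naive B, 37.8% in plasmablast and 23.3% in plasma cell libraries, a difference of -21.7 points at the first step. With Zbtb20, a zinc finger factor that plasma cells need to persist, the plasma cell program held 3 late-loss CpGs, 0.674% of them against 0.188% of tested CpGs.

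The other lists held 0 to 2 each. Mature B cell identity held 1, in an intron of Pax5, the factor that maintains the B cell state, which was 0.225% of late-loss against 0.351% of tested CpGs. It had 73.1%, 100% and 78.1% in naive B cells, 80.4%, 79.5% and 68.8% in plasmablasts, and 50.0%, 52.7% and 37.3% in plasma cells. The DNA methylation machinery held 2 (0.449% against 0.167%). The promoter CpG of Tet1, an enzyme that oxidises methylcytosine (chr10:62328868, 856 bp before the start), had 41.0%, 70.0% and 63.6% in naive B cells, 33.3%, 53.3% and 60.5% in plasmablasts, and 28.9%, 15.9% and 19.0% in plasma cells. The intronic one of Dnmt3a, a methyltransferase that sets new methyl groups, had pooled levels of 70.8%, 75.7% and 41.8% in stage order.

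The proliferation list held 2 (0.449% against 0.287% of tested CpGs). Mcm3, a subunit of the replicative helicase, had an exonic CpG at 75.9% in naive B, 79.0% in plasmablast and 45.9% in plasma cell libraries by pooled reads, and Cdk1, the mitotic kinase, a distant one at 98.6%, 95.1% and 64.5%. Secretion and the unfolded protein response had 1 (0.225% against 0.278%), near Sec61b, a subunit of the channel into the endoplasmic reticulum, with 68.2%, 65.9% and 28.4%. The TLR4 and NF-kB list had 1 (0.225% against 0.249%), assigned to Map3k7 but 1380370 bp from its start site. Of the 2 marker lists, T cell genes had 1 (0.225% against 0.219%), in Gata3, and myeloid genes had 0 of 245 tested CpGs. Of the B cell markers, start-site CpGs of Cd79b averaged 2.37% in naive B, 3.19% in plasmablast and 0.643% in plasma cell libraries. Those of Pax5 averaged 1.35%, 4.36% and 0.774% in the same order. These lie near library backgrounds of 0.749% to 3.13% in naive B, 2.08% to 6.11% in plasmablast and 1.07% to 1.16% in plasma cell libraries. Group differences there cannot be told from background. Of the T cell markers, 2 of 5 were measured at 12.2% to 21.5% in naive B, 13.0% to 22.7% in plasmablast and 8.99% to 18.1% in plasma cell libraries. The only myeloid marker measured, Mpo, had 37.6% in naive B, 41.8% in plasmablast and 25.3% in plasma cell libraries.

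Other genes also held 2 late-loss CpGs, whose plasma cell levels the rule again limits on both sides. Lgr6, a receptor for R-spondins, had one at chr1:137007127 with 80%, 92.6% and 95% in naive B cells, 82.6%, 81.2% and 85.2% in plasmablasts, and 50.0%, 25.7% and 33.3% in plasma cells. Sema3f, a secreted guidance factor, had one at chr9:107626107 with 74.0%, 84.2% and 80.6% in naive B cells, 67.9%, 87.5% and 90.9% in plasmablasts, and 51.5%, 16.7% and 32.1% in plasma cells. Tsc22d3, a glucocorticoid-induced regulator, had one 66 bp after its start site (chrX:137134994) with 40.7%, 65.6% and 63.2% in naive B cells, 50.0%, 57.6% and 54.8% in plasmablasts, and 27.5%, 18.5% and 17.9% in plasma cells. In all 3, plasma cells 1 was the highest of the plasma cell libraries. Others with 2 among those named by rank were Coro2a, Pde5a, Pnma1, Mpp7, Rnf220, Mt1 and Klhdc7a, with pooled plasma cell levels between 28.1% at Coro2a and 63.2% at Pnma1.

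At the thresholds CpGs differed by fractions of a point. A CpG near Egfr (94.0% in naive B, 90.6% in plasmablast and 60.5% in plasma cell libraries) was in by 0.0397 points and the CpG at chr19:7209332 near Flrt1 (80.3%, 78.9% and 48.9%) was out by 0.0156, while another CpG of Flrt1, at chr19:7215744, is among the 445. A CpG near Gamt, with 85.1%, 90.1% and 46.6%, missed the 5-point limit although plasma cells minus plasmablasts was -43.6 points. Of 1997 CpGs with a drop of 30 points or more at the last step and over 20% in plasma cells, 1286 had plasmablasts more than 5 points below naive B cells and 266 more than 5 points above. A further 51 met everything but had a plasma cell level of 20% or less. The CpG of Slc7a7 was the nearest inside that limit, at a pooled 20.3%, and those near Tgfbrap1, Dnajb13 and Brwd3 were just outside, at 20% each.

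Whether plasmablasts were level with naive B cells at such CpGs was read in libraries that had no part in the choice. The rule was applied to 2 libraries of each group, with replicate 1, 2 or 3 of every group left out, and the levels were read in the left-out libraries. The replicate number is used here only to name the libraries. Choosing without the replicates 1 took 1381 CpGs. In the left-out libraries the mean was 79.9% for naive B cells 1, 70.5% for plasmablasts 1 and 63.2% for plasma cells 1. Choosing without the replicates 2 took 550 CpGs, with 85.7%, 74.0% and 51.1% in the left-out libraries in stage order, and choosing without the replicates 3 took 523, with 85.2%, 73.2% and 51%.

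In each of the 3 left-out sets plasmablasts were below naive B cells. The difference was -9.39, -11.8 and -12.0 points, against -7.15, -7.14 and -8.55 points over all tested CpGs. All tested CpGs began lower, at 61.0%, 63.2% and 63.0% in the left-out naive B libraries, so the 2 sets are not matched in level. Of the 1381, 550 and 523 CpGs chosen in this way, 217, 181 and 175 were also late-loss CpGs with all libraries. The left-out levels thus describe CpGs that the rule takes from fewer libraries, most of them not late-loss CpGs with all libraries. For CpGs taken in this way, the name "unchanged in plasmablasts" goes against the left-out libraries. The CpGs are called late-loss only as the rule defines them. The further difference to plasma cells was -7.39, -22.9 and -22.2 points in the left-out libraries, against -2.02, -7.03 and -5.91 over all tested CpGs. Plasma cells were below plasmablasts at 68.9%, 89.6% and 88.5% of the chosen CpGs, against 54.4%, 71.4% and 62.5% of all tested CpGs. The whole rule was met in the left-out libraries alone at 2.82%, 9.45% and 8.03% of the chosen CpGs. The left-out sets share libraries and are not replicates, and no test was made.

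CpGs chosen only for near-equal naive B and plasmablast levels give a baseline without the late criterion. Among those at 50% or more in naive B cells, plasma cells minus plasmablasts was -1.62, -5.31 and -5.37 points in the left-out libraries. Plasmablasts minus naive B cells was -5.46, -6.46 and -6.51 points there, from naive B levels of 92.5%, 94.7% and 94.5%. CpGs chosen by the late-loss rule minus this baseline thus came to -5.77, -17.6 and -16.8 points at the last step. At early-loss CpGs chosen the same way, plasmablasts minus naive B cells was -26.0, -27.0 and -28.4 points when left out, and plasma cells minus plasmablasts was -2.41, -10.5 and -10.5 points. With at least 20 reads in every library, a setting added after seeing the data, 267, 83 and 83 CpGs were chosen. In the left-out libraries plasmablasts minus naive B cells was -7.00, -12.1 and -7.64 points. Plasma cells minus plasmablasts was then -9.01, -23.9 and -25.1 points.

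**Figure D4:**
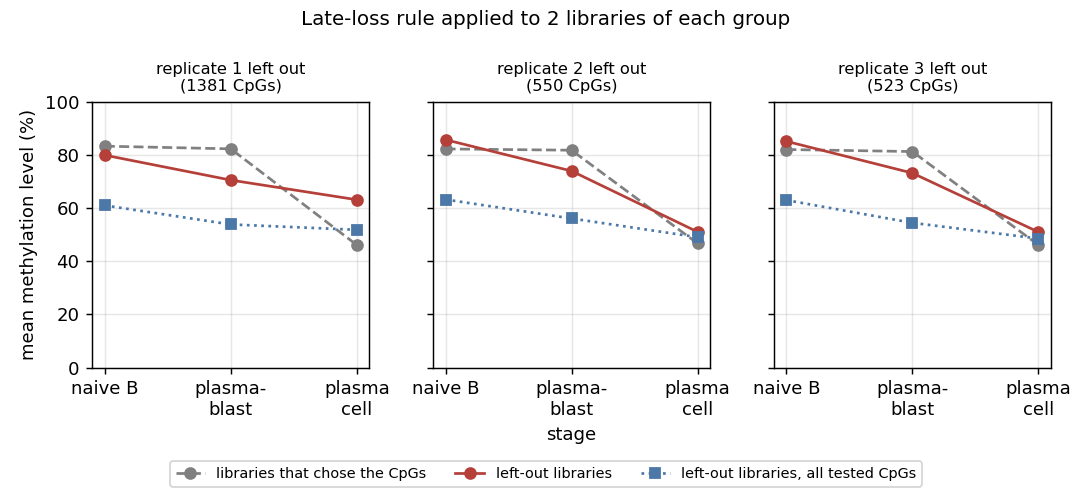
Mean methylation level (%) by stage of CpGs that met the late-loss rule in 2 libraries of each group, with replicate 1, 2 or 3 left out. The dashed line shows the libraries that chose the CpGs, the solid line the left-out libraries and the dotted line all tested CpGs in the left-out libraries. The dashed line is level between naive B cells and plasmablasts, while the solid line changes by -9.39, -11.8 and -12.0 points there.

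CpGs near a late-loss CpG but out of reach of its reads have levels that the rule did not use. They were still read in the same 9 libraries that chose the late-loss CpGs. Reads were 50 bp long, so CpGs more than 100 and up to 1000 bp away were never covered by the same read. The 1257 such CpGs had 63.4%, 66.7% and 65.6% in naive B cells, 55.5%, 57.8% and 56.5% in plasmablasts, and 52.6%, 47.3% and 47.1% in plasma cells. Every plasma cell library lay below every plasmablast library, and every plasmablast library below every naive B library. The difference was -7.58 points between plasma cells and plasmablasts and -8.62 between plasmablasts and naive B cells (exact two-sided permutation tests, p = 0.1 each, the smallest that 3 against 3 libraries allow). Around late-loss CpGs both steps thus differed by more than the spread between libraries, while the test cannot pass 0.05. Within 1000 bp of the late-loss CpG on chromosome 17 without a gene symbol lay 63 other tested CpGs. Those more than 100 bp away belong to the 1257 neighbours. The 63 carried 1305 to 37877 reads each, and most had a higher pooled level in plasmablasts than in naive B cells. How far this locus shifts the neighbour differences was not tested.

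The same distances around early-loss CpGs gave -6.36 points at the last step and -12.5 at the first, and around 15042 stable CpGs (all 3 levels within 5 points, at least 50% in naive B cells) -5.0 and -9.47. The last-step difference next to late-loss CpGs minus that next to early-loss CpGs was -1.22 points, and minus that next to stable ones -2.58 points (exact permutation tests over libraries, p = 0.1 each). At the first step the neighbours of late-loss CpGs were 3.92 points less negative than those of early-loss CpGs (exact permutation p = 0.1). Against those of stable CpGs the first step differed by 0.851 points (exact permutation p = 0.3). The neighbour sets began at different naive B levels, 65.2% for late-loss, 82.2% for early-loss and 85.0% for stable CpGs. Differences in points between the sets were not adjusted for this. All 3 sets were chosen by levels in these same libraries, so the neighbour differences and their p-values are not free of the choice. Of the 1257 neighbours, 35 were also neighbours of early-loss CpGs and 105 of stable ones. Within the libraries of higher background (plasmablasts 1 to 3, naive B cells 2 and 3), plasmablasts minus naive B cells was -9.54 points. Within those of lower background, plasma cells minus naive B cells was -14.4 points. Naive B cells 1 was the only naive library there.

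Within reach of the same reads, 1 to 50 bp away, 312 other CpGs had 73.7% in naive B, 64.5% in plasmablast and 50.0% in plasma cell libraries. Their last-step difference of -14.5 points shares reads with the choice. At 108 of them (34.6%, against 3.91% of all tested CpGs) plasma cells were at least 20 points below plasmablasts. At 133 (42.6%, against 35.6%) plasmablasts were at least 10 points below naive B cells, and at 30 (9.62%, against 0.841%) the pattern came near the late-loss one, with plasmablasts within 5 points of naive B cells and plasma cells at least 20 points below plasmablasts. Rnf220, a ubiquitin ligase gene, shows the contrast on 1 fragment. Its late-loss CpG at chr4:117181655 had pooled levels of 98.5%, 95.6% and 60.6% in stage order, and the CpG 37 bp away 100%, 51.3% and 49%. On the same reads plasmablasts minus naive B cells was -48.7 points at the neighbour.

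**Figure D5:**
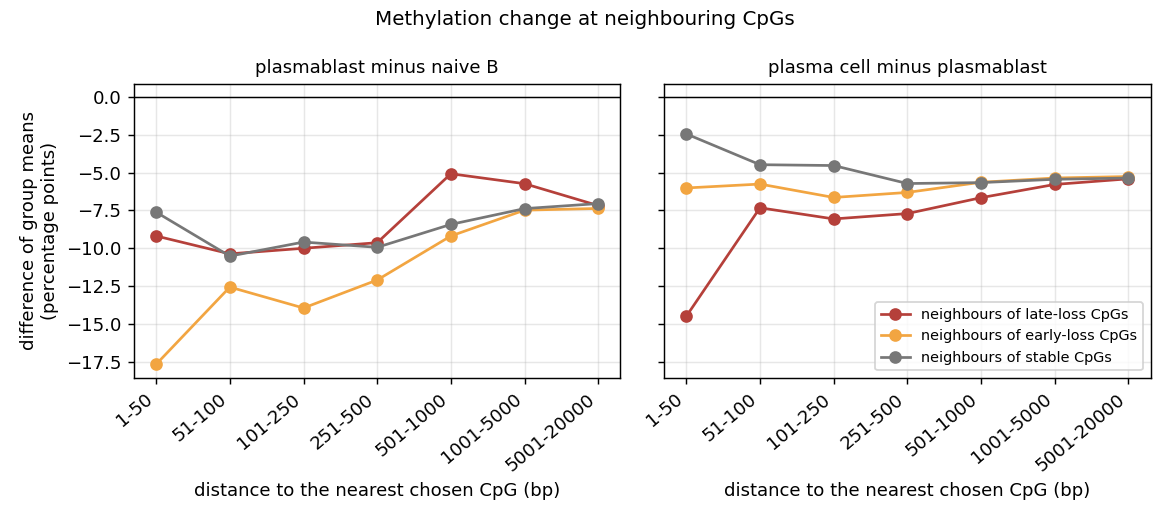
Difference of group means (percentage points) at CpGs by distance (bp) from the nearest late-loss, early-loss or stable CpG, for plasmablasts minus naive B cells and for plasma cells minus plasmablasts. Each point is the mean over the CpGs in that distance range and 3 libraries in each group. The last-step difference next to late-loss CpGs was -14.5 points at 1 to 50 bp, where reads are shared, and between -8.06 and -5.41 points beyond 100 bp.

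The genes that hold late-loss CpGs were then measured on their other CpGs. Late-loss CpGs and all CpGs within 100 bp of them were removed, and the reads of a gene's remaining CpGs were summed. With at least 5 CpGs left, 14216 gene loci were tested, 344 of them with a late-loss CpG (quasi-binomial model moderated with limma, called at a Benjamini-Hochberg adjusted p under 0.01 and 5 points). Between plasma cells and plasmablasts no locus was called lower (0%), and 0 of the 344. At an unadjusted p under 0.05, 7276 loci were lower and 1 higher, and 252 of the 344 were lower and 0 higher. limma on log2 ratios also called 0. The median difference was -9.08 points at the 344 loci and -7.73 over all loci.

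That result rests on the adjusted p cutoff of 0.01. With all libraries, many loci had adjusted p-values between 0.01 and 0.05 in the quasi-binomial model, such as Pim1, Zdhhc18 and Ptpn22 below. The result also rests on plasma cells 1. Without this library, 146 of the 344 loci (42.4%) were lower in plasma cells than in plasmablasts, against 20.6% of all loci, and 0 were higher. The median differences lay closer, at -12.0 points for the 344 and -10.1 for all loci. At least 10 CpGs were left at 310 of the 344 loci and at 10516 of all 14216, and the shares were not matched for this. Pim1 is an example of a locus called only without plasma cells 1. On its 93 other CpGs it had 39.7% ± 0.603 in naive B, 32.7% ± 3.20 in plasmablast and 18.7% ± 5.41 in plasma cell libraries (SD, n = 3 each). The difference between plasma cells and plasmablasts was -14.3 points (adjusted p = 0.0364 in the quasi-binomial model with Benjamini-Hochberg adjustment) and -17.3 points without plasma cells 1, where it was called. Zdhhc18 differed by -18.5 points (adjusted p = 0.0393) and Ptpn22 by -17.4 points (adjusted p = 0.0364). Without that library both were called, at -24.6 points for Zdhhc18 and -20.4 points for Ptpn22. The locus of Slc43a2, whose single CpG had the largest difference, differed by -5.40 points (adjusted p = 0.45). The locus of Mcm3 differed by 0.563 points (adjusted p = 0.898).

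Between plasmablasts and naive B cells loci of both kinds were called. Of the 344, 115 (33.4%) fell in plasmablasts, against 26.1% of all loci, and none of the 344 rose. With limma on log2 ratios the order of the shares turned, with 84 of the 344 (24.4%) against 28.5% of all loci. The median difference was -8.97 points at the 344 loci and -7.42 over all. Leaving out naive B cells 2 or 3 or any plasmablast library lowered the 115 to between 56 and 70. Pax5 fell to 49.5% ± 2.00 in plasmablasts, against 64.3% ± 2.37 in naive B cells (difference -14.8 points, adjusted p = 0.000694), and its plasma cell level was 42.4% ± 4.01. Zbtb20 fell by 14.8 points (adjusted p = 0.000263) and Map3k7 by 11.9 points (adjusted p = 0.000843). Elmsan1 fell by 12.6 points (adjusted p = 0.00417), although its late-loss CpG was almost level. The other 229 did not pass at this step. Among them the difference was -10.6 points at Sec61b (adjusted p = 0.0142), -8.64 at Mcm3 (adjusted p = 0.0549), -7.49 at Tet1 (adjusted p = 0.109) and -6.71 at Pim1 (adjusted p = 0.103). It was nearer 0 at Dnmt3a (-3.32, adjusted p = 0.591), Gata3 (-1.34, adjusted p = 0.822), Rbm38 (-1.30, adjusted p = 0.741), Sema3f (-0.567, adjusted p = 0.879) and Cdk1 (1.43, adjusted p = 0.751). By list, 13 of 35 mature B cell loci, 15 of 37 TLR4 and NF-kB loci, 5 of 21 plasma cell program loci, 7 of 26 loci of the methylation machinery, 7 of 47 secretion loci and 2 of 38 proliferation loci fell in plasmablasts, and none of these rose. Between plasma cells and plasmablasts no locus of any list was called. Without plasma cells 1, 11 of 21 plasma cell program loci, 17 of 35 of mature B cell identity, 12 of 47 of secretion, 13 of 38 of proliferation, 13 of 37 of TLR4 and NF-kB and 6 of 26 of the methylation machinery were lower in plasma cells than in plasmablasts, against 20.6% of all loci. In that setting 6 of 18 T cell and 3 of 12 myeloid marker loci were also lower. With all libraries, the marker lists had 7 of 18 T cell and 3 of 12 myeloid loci lower in plasmablasts than in naive B cells. The part of other cell types in these results was not tested.

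In the authors' deposited table of differential CpGs for plasmablasts against naive B cells, 0 of the 445 late-loss CpGs were listed, against 3.32% of tested CpGs. In the authors' deposited table for plasma cells against naive B cells, 335 were listed (75.3%, against 15.3% of tested CpGs), and 110 were in neither. Both lists come from the libraries that chose the CpGs.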

How the data were processed

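Per the labels' protocols, DNA was cut with MspI, bisulfite treated, amplified by PCR and sequenced as 50 bp single-end reads. Per the submitters' processing notes, Bismark and Bowtie2 were used with build mm9, in versions not given in the sources used here. For 911004 CpGs the authors deposited methylated and unmethylated read counts in each library and the level as a fraction, which equals methylated over all reads, with the nearest gene and its annotation. The authors' lists of differential CpGs were used only as lists.

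CpGs with at least 10 reads in all 9 libraries were kept. Libraries were grouped by GEO's labels, 3 in each group, with 16037172 to 29948088 reads over CpGs each. Because libraries are not tied to animals by the labels, p-values measure only how these libraries differ, and part of that may be technical. PCR reads carry no molecular identifiers. Replicate libraries correlated at 0.956 to 0.986 and shared both counts at 4.32% of CpGs or fewer, and each counted as 1 sample.

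Members, lists and thresholds were chosen with earlier results of these data known. Text names the 15 genes with most late-loss CpGs, the 10 CpGs with the largest difference, the 5 longest runs, list genes with a late-loss CpG, Pim1 and the CpGs next to each threshold; Mpp7 and some list genes are named without all values. A few genes that this rule or the marker lists name are not reported here. Casz1 and Rnf220's neighbour were picked after their values were seen.

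Gene loci were fitted in R 4.3.3 with a quasi-binomial model whose dispersion was moderated with limma 3.58.1, F tests and Benjamini-Hochberg adjustment over all loci. The model was tested on simulated data. Other steps used Python 3.11.15, numpy 2.4.6 and pandas 2.3.3. Alternatives covered the read minimum, each threshold, pooling, background subtraction, neighbour distance, single libraries left out and the replicate block. Sequence around the CpGs in mm9 was not analysed here.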

Additional observations from a re-analysis of the deposited data

How the results depend on the processing

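The number of late-loss CpGs followed its thresholds. Against 445, it was 69 with at least 20 reads in every library and 1019 with at least 5, 263 within 3 points and 887 within 10 points between naive B cells and plasmablasts, and 1087 at 25 points and 58 at 40 points at the last step. Unweighted library means gave 473 (326 shared), no minimum for plasma cells 496, and background subtraction 401. Leaving out 1 library gave 356 to 950; it was 950 without plasma cells 1 and 763 without plasmablasts 1, with 392 and 287 of the 445 among them.

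In the left-out libraries the difference between plasma cells and plasmablasts was -7.39, -22.9 and -22.2 points (replicate 1, 2 and 3 left out) against -36.2, -35.1 and -35.1 for the same CpGs in the libraries that chose them, and -9.01, -23.9 and -25.1 with 20 reads, which was chosen after seeing the data. The difference between plasmablasts and naive B cells was -9.39, -11.8 and -12.0 against -1.01, -0.496 and -0.766, and -7.00, -12.1 and -7.64 with 20 reads. Neighbours up to 1000 bp away kept their direction at both steps under all alternatives, with -14.1 (last step) and -3.21 (first step, exact permutation p = 0.7) for pooled reads. Pooled reads give more weight to deeply read CpGs, such as those near the late-loss CpG on chromosome 17 (1305 to 37877 reads each). The part of that locus in the pooled values was not tested. Late-loss against stable neighbours at the first step turned to -0.376 points with 20 reads, and the cause was not tested.

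Between plasma cells and plasmablasts no gene locus was called under any alternative except without plasma cells 1 (2934 of all loci and 146 of the 344) and without naive B cells 1 (4 and 0). Between plasmablasts and naive B cells, leaving out 1 library gave 1830 to 5006 loci, and 56 to 160 of the 344. Against the full counts of 3712 and 115, those lower by more than 1.5 times were 1830 and 57 without naive B cells 2, 2083 and 69 without naive B cells 3, 1898 and 56 without plasmablasts 1, 2077 and 66 without plasmablasts 2, and 2119 and 70 without plasmablasts 3. With background set as a term the counts were 4970 and 159, and with limma on log2 ratios 4047 (28.5%) and 84 (24.4%), so that the share of the 344 lay below that of all loci.

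Same-numbered libraries had deviations correlated at -0.0287 to 0.0302, and differently numbered ones at -0.0368 to 0.0419. These correlations cannot show whether same-numbered libraries came from the same mice. With the replicate block, 2048 loci and 69 of the 344 fell in plasmablasts, 0 were called at the last step, and neighbour tests had an exact p = 0.25, the smallest that 3 pairs allow. The windows of sequence planned around the CpGs were not run. With a median of 20 to 31 reads per library, a level at 1 late-loss CpG is coarse.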
